A study of Mus musculus with 10 samples.

Results

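The genes described here are 30 genes of sterol and fatty acid synthesis, taken by symbol from a table of 29955 mouse genes. They were listed by function, with earlier results of these data known: 18 encode enzymes of the sterol pathway, 4 encode its regulators and a sterol carrier, and 8 encode enzymes of the fatty acid pathway. Their RNA was measured by sequencing in 10 libraries from a mouse line of Philadelphia chromosome-positive acute lymphoblastic leukaemia (Ph+ ALL). All of the lines carry the p185 form of BCR-ABL1, the fusion kinase that dasatinib inhibits. The lines were carried through rising steps of dasatinib or of its DMSO vehicle, and the question was how the transcriptome changed along that path. The groups were the untreated parental line (2 libraries), the line carried in DMSO to the 1x step (1 library), the line carried in DMSO to the 16x step (1 library), lines grown out in dasatinib at 1x its IC90 (3 libraries) and lines grown out in dasatinib at 16x its IC90 (3 libraries). IC90 is a concentration that inhibits most of the response. The libraries come from 1 starting line, and each DMSO step is a single library.

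Sterols are built from acetyl-CoA through the mevalonate pathway to squalene, which is closed into lanosterol and trimmed to cholesterol. The transcription factors SREBP-1 and SREBP-2, encoded by Srebf1 and Srebf2, switch on most of these enzymes and those of fatty acid synthesis when membrane sterols run low, while Insig1 holds them back in the endoplasmic reticulum when sterols are plentiful. Dividing lymphoid cells use both pathways to make membrane.

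Total counts ran from 29049760 to 45813092 per library, and levels are given as CPM, the counts scaled to the TMM-adjusted size of each library. All 7 B-lineage markers passed the filter on low counts, with sums of 2690 to 3080 CPM in the 4 drug-free libraries, 2550 to 2690 in dasatinib 1x and 2430 to 2510 in dasatinib 16x, although Ebf1 stayed under 1 CPM. The T cell and stroma sums were under 0.1 CPM, the adipocyte and hepatocyte markers had 0 counts, and the myeloid sums were 6.66 to 10.8 CPM. The 3 erythroid markers in the table ranged most, from 4.19 to 34.6 CPM in the drug-free libraries, 3.83 to 4.53 in dasatinib 1x and 16.4 to 26.6 in dasatinib 16x. The part of these marker levels in the results was not tested.

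Of the 30 genes, 29 passed the filter on low counts and were tested. Hmgcs1, which makes HMG-CoA, was listed at 0 in all 10 libraries. Cells that make sterols commonly use this enzyme, and the table does not show whether the gene was silent or whether reads were not assigned to it, so its 0 is not read as a level. Per kilobase of exon, the parental lines held most of Scd2 (311 CPM per kb), Scd1 (135), Acly (89.6), Fasn (75.4), Cyp51 (67.7) and Srebf2 (62.2). Tm7sf2, a sterol reductase, stood at 1.11 CPM per kb and Elovl6, a fatty acid elongase, at 0.154. The stearoyl-CoA desaturases, ATP citrate lyase and fatty acid synthase thus stood above every sterol enzyme on the scale per length. The counts of Fdps, Fdft1, Cyp51, Tm7sf2 and Srebf1 are uncertain, since each overlaps another protein-coding gene and the strand setting is not given in the sources used here.

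Promoter sequence is shown for the genes that the results below turn on: Acat2, Idi1 and Cyp51, which fell at dasatinib 16x, Insig1, a textbook SREBP target, and Fads2, which changed most. Each line is the 250 bases before the annotated start, from RefSeq on build GRCm38.p6, read 5′ to 3′ on the gene's strand. Capitals mark CACNCCAC (a sterol regulatory element core), CCAAT (the NF-Y box) and GGGCGG (the Sp1 box) on either strand. The stretches lie at chr17:12960726-12960975 (minus strand) for Acat2, chr5:28071162-28071411 (plus strand) for Insig1, chr13:8885356-8885605 (plus strand) for Idi1, chr5:4104698-4104947 (minus strand) for Cyp51 and chr19:10101504-10101753 (minus strand) for Fads2.
Acat2: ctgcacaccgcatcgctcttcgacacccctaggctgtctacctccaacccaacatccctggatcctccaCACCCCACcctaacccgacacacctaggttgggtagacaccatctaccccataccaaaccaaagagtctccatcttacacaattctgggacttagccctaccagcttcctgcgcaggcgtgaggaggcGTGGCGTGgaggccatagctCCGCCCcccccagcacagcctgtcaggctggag
Insig1: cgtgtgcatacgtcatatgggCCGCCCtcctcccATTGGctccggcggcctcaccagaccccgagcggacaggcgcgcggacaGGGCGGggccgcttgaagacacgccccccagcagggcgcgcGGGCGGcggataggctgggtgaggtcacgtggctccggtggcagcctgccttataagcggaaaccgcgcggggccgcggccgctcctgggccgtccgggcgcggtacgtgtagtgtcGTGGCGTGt
Idi1: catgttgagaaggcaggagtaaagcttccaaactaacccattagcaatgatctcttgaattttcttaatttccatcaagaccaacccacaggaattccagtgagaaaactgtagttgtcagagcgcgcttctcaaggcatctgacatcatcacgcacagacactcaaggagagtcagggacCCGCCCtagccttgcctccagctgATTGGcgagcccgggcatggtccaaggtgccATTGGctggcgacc
Cyp51: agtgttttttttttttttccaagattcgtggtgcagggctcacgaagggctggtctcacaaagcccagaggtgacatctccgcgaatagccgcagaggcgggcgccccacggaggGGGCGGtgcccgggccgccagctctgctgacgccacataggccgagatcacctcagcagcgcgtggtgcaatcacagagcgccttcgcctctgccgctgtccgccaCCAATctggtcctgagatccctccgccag
Fads2: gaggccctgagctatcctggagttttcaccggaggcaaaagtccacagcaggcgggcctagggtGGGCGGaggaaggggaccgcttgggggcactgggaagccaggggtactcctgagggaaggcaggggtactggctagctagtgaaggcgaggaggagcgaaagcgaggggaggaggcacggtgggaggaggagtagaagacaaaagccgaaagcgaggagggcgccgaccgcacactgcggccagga
Of the 30 genes, 23 had a promoter entry of 300 bases. CACNCCAC was found in 3 of the 23 (13.0%), the CCAAT box in 19 (82.6%) and GGGCGG in 19 (82.6%). Among all 27025 genes of the same table the shares were 7.12%, 41.1% and 38.2%. Those genes were not limited to the ones that passed the filter on low counts, and shares among expressed genes alone were not taken. The third gene with CACNCCAC, beside Acat2 and Insig1, is Hmgcs1. By arm, the CCAAT box was found in 14 of 15 sterol enzymes with an entry, 3 of 3 regulators and 2 of 5 fatty acid genes. The counts by arm were the same for GGGCGG. A match is a run of letters and not a measured site. Fdps, Fdft1, Sqle, Stard4, Scd1, Scd2 and Fads1 had no entry.

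**Figure D1:**
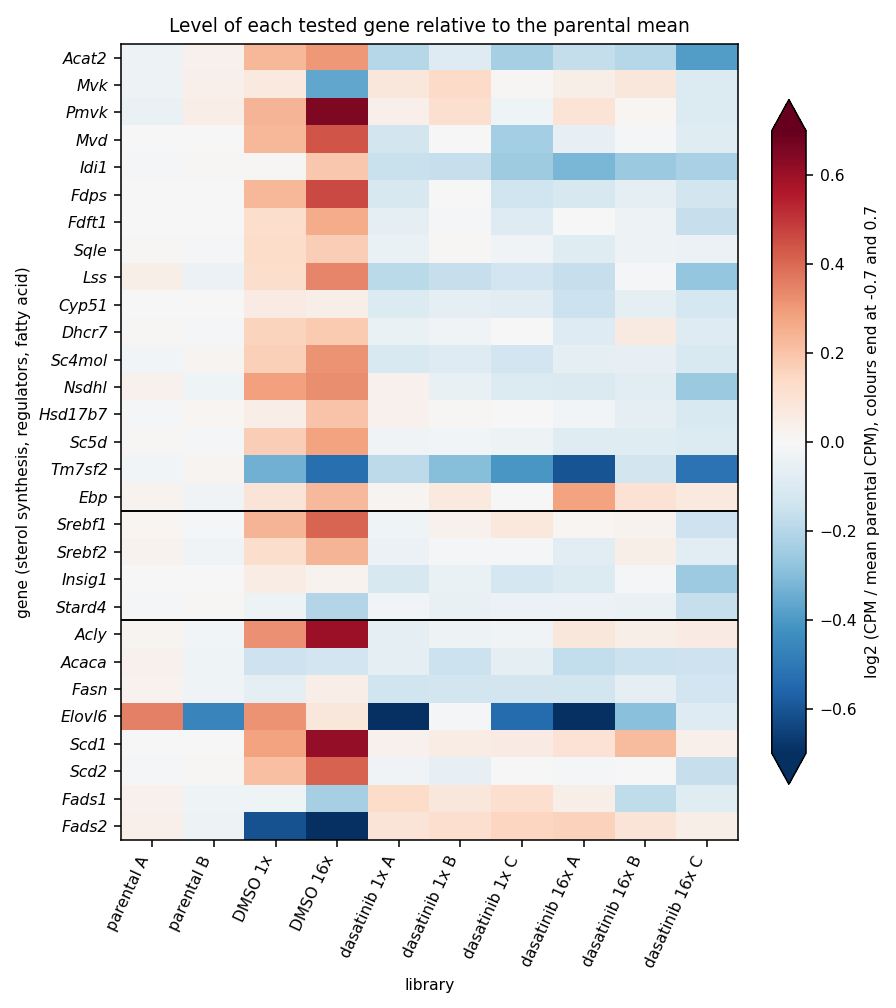
Colour map of the log2 ratio of CPM to the parental mean for the 29 tested genes (rows, with lines between the sterol, regulator and fatty acid genes) in the 10 libraries (columns). The DMSO 16x column holds the highest level of 19 genes, and the dasatinib columns lie close to the parental ones.

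In the dasatinib 1x lines most sterol enzymes lay slightly under the drug-free mean, and none passed the test with the 4 drug-free libraries as 1 class. The drug-free class joins the 2 parental libraries and both DMSO libraries. A gene is said to rise or fall where the edgeR quasi-likelihood test gave an adjusted p under 0.05 over all 12282 genes tested. At 1x against drug-free, 0 of the 29 genes passed, where 1.96% of all tested genes did. With each group fitted on its own and the mean of the 3 drug-free groups as reference, 22 of the 29 (75.9%) passed at 1x, 19 of them lower, where 28.1% of all tested genes did. Without adjustment, 12 genes had a p under 0.05, 11 of them lower, where 19.8% of all tested genes had one. DESeq2 called 6 (20.7%), all lower, where it called 6.38% of all genes it tested. Of the 17 tested sterol enzymes, 16 had a log2 change below 0 (median -0.16), against 51.7% of all tested genes (median -0.01). In 7 of the 17, all 3 dasatinib 1x libraries lay below all 4 drug-free ones, which held for 11% of all tested genes. The other 10 overlapped the drug-free libraries. The smallest adjusted p was that of Idi1, isopentenyl diphosphate isomerase, at 0.0566 for a log2 change of -0.24 ± 0.05 (SE).

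In the dasatinib 16x lines 3 sterol enzymes fell: Acat2, Idi1 and Cyp51. Against the drug-free class 3 of 29 genes (10.3%) passed, all lower, where 16.1% of all tested genes passed. The share among these genes was below the background in that fit. It was also below with RLE scaling (10.3% against 16.0%) and with a replicate block (6.9% against 10.8%). Without the filter on low counts it was slightly above (10.3% against 8.92%), and it was further above in 2 other fits on the same libraries. With each group fitted on its own, and the parental mean and the 2 DMSO libraries weighted equally, 22 of 29 (75.9%) passed, 21 of them lower. The background there was 37.0% of all tested genes. DESeq2 called 8 (27.6%), all lower, against 19.4%. Without adjustment, 14 of the 29 had a p under 0.05, all lower, where 31.4% of all tested genes had one. Of the 17 sterol enzymes, 15 had a log2 change below 0, with a median of -0.20. In 10 of the 17, all 3 dasatinib 16x libraries lay below all 4 drug-free ones, which held for 14.0% of all tested genes. The 4 regulators had a median log2 change of -0.13 and the 8 fatty acid genes one of -0.12, and none of these 12 passed.

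Acat2, cytosolic acetyl-CoA acetyltransferase, makes the acetoacetyl-CoA that feeds the mevalonate pathway. Its level was 67.4 and 70.5 CPM in the parental libraries, 80.9 in DMSO 1x, 85.2 in DMSO 16x, 60.1, 64.8 and 58.6 in dasatinib 1x and 61.3, 60.0 and 52.6 in dasatinib 16x. The dasatinib libraries of both steps lay below every drug-free library, and the DMSO libraries above the parental ones. The log2 change at 16x was -0.39 ± 0.09 (SE, 3 against 4 libraries, edgeR adjusted p = 0.0179). Without dasatinib 16x replicate C the adjusted p was 0.0765. The promoter of Acat2 shown above carries 2 CACNCCAC matches.

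Idi1 isomerises isopentenyl diphosphate, a building unit of isoprenoids. It stood at 79.4 and 80.4 CPM in the parental libraries, 80.4 in DMSO 1x, 91.1 in DMSO 16x, 71.8, 71.4 and 67.2 in dasatinib 1x and 64.1, 66.7 and 68.3 in dasatinib 16x. No dasatinib library reached the lowest drug-free one. The log2 change at 16x was -0.32 ± 0.05 (SE, edgeR adjusted p = 0.005), and it passed under every alternative run, including each library left out.

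Cyp51, lanosterol demethylase, stood at 298.9 and 299.0 CPM in the parental libraries, 310.6 in DMSO 1x, 307.2 in DMSO 16x, 279.5, 285.0 and 283.8 in dasatinib 1x and 269.1, 284.9 and 274.1 in dasatinib 16x. All 6 dasatinib libraries lay below all 4 drug-free ones, with a small log2 change at 16x of -0.14 ± 0.03 (SE, edgeR adjusted p = 0.0155). Leaving out dasatinib 16x replicate A or replicate C raised the adjusted p to at most 0.0687, and without replicate C, Idi1 was the 1 gene of the 29 still called. Cyp51 overlaps Akap9 on the other strand.

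**Figure D2:**
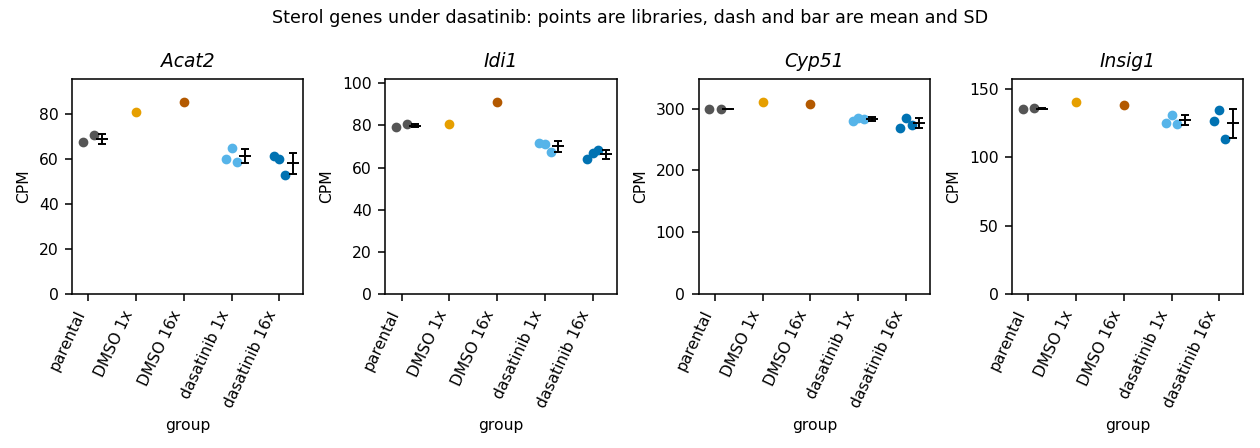
CPM (vertical axes, from 0) of Acat2, Idi1, Cyp51 and Insig1 in the 5 groups, with 1 point per library and the mean and SD of groups with over 1 library beside them. For all 4 genes the 6 dasatinib points lie below the 4 drug-free points.

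The other sterol enzymes lay lower in dasatinib 16x by amounts that did not pass. Nsdhl, a sterol dehydrogenase, was nearest to the threshold, with a log2 change of -0.30 ± 0.09 (edgeR adjusted p = 0.0537). Fdps, farnesyl diphosphate synthase, differed by -0.29 ± 0.10 (edgeR adjusted p = 0.0915) and Lss, lanosterol synthase, by -0.27 ± 0.09 (adjusted p = 0.0706). Only Mvk, mevalonate kinase, and Ebp, a sterol isomerase, had values above 0 among the sterol enzymes, 0.08 ± 0.10 and 0.07 ± 0.07, and neither passed. Mvk, Cyp51 and Insig1 lie on chromosome 5. Its genes had a median log2 change against drug-free of 0.22 at 1x and 0.22 at 16x, and the part of chromosome content was not tested.

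The number of genes called moved with the reference and with the form of the model. As 1 class, the 4 drug-free libraries gave the 0 and 3 calls above. In the fit of 5 groups the same libraries gave 22 at each step, with the parental mean and the 2 DMSO libraries weighted equally. In the fit of 5 groups against the 2 parental libraries alone, 5 genes (17.2%) fell at 16x, where 26.5% of all tested genes passed: Idi1 (-0.27), Acat2 (-0.25), Acaca (-0.16), Cyp51 (-0.12) and Fasn (-0.11). At 1x, Idi1 (-0.19) and Fasn (-0.13) fell, 2 of 29 (6.90%), where 5.76% of all tested genes passed. Against the 2 DMSO libraries alone in that fit, 21 genes (72.4%) were called at 16x (20 lower), where 36.8% of all tested genes passed, and 22 (75.9%) at 1x (19 lower), where 33.8% did. The class of 4 drug-free libraries was itself spread: the DMSO lines lay above the parental line for most of these genes, as described below. The comparisons with DMSO and with the drug-free class share the DMSO libraries.

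Among the regulators, the SREBP genes did not pass against the drug-free class. Srebf1 was at 197.4 and 194.2 CPM in the parental libraries, 230.7 in DMSO 1x, 259.7 in DMSO 16x, 191.8, 200.1 and 205.9 in dasatinib 1x and 197.5, 199.2 and 177.2 in dasatinib 16x. The dasatinib values span the parental ones, and the DMSO lines stand above both. The log2 change against drug-free was -0.15 ± 0.10 at 1x (edgeR adjusted p = 0.426) and -0.21 ± 0.10 at 16x (adjusted p = 0.186).

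Srebf2, the sterol-directed factor, was at 454.5 and 439.7 CPM in the parental libraries, 486.2 in DMSO 1x, 528.1 in DMSO 16x, 434.0, 444.6 and 442.5 in dasatinib 1x and 424.3, 459.5 and 424.6 in dasatinib 16x. Again the DMSO libraries were the highest, and 1 dasatinib library (16x replicate B) lay above the parental pair. The log2 changes were -0.12 ± 0.06 at 1x and -0.13 ± 0.06 at 16x (edgeR adjusted p = 0.314 and 0.176).

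Insig1, the retention factor and itself a known SREBP target, was at 135.1 and 135.8 CPM in the parental libraries, 140.3 in DMSO 1x, 137.8 in DMSO 16x, 125.3, 131.0 and 124.2 in dasatinib 1x and 126.6, 134.3 and 113.5 in dasatinib 16x. Every dasatinib library lay below every drug-free one, yet neither change passed: -0.11 ± 0.05 at 1x (edgeR adjusted p = 0.261) and -0.14 ± 0.05 at 16x (adjusted p = 0.106). Stard4, a carrier of sterol between membranes, was at 163.5 and 165.1 CPM in the parental libraries, 160.5 in DMSO 1x, 142.5 in DMSO 16x, 162.0, 158.4 and 159.9 in dasatinib 1x and 159.6, 158.8 and 147.1 in dasatinib 16x. Its lowest library was DMSO 16x.

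The fatty acid genes gave no call against the drug-free class at either step. Fasn, fatty acid synthase, came nearest: 841.3 and 810.5 CPM in the parental libraries, 791.2 in DMSO 1x, 852.0 in DMSO 16x, 749.8, 754.8 and 755.0 in dasatinib 1x and 756.6, 786.5 and 752.0 in dasatinib 16x. All dasatinib libraries lay below all drug-free ones, with log2 changes of -0.13 ± 0.03 at 1x (edgeR adjusted p = 0.0934) and -0.11 ± 0.03 at 16x (adjusted p = 0.0624). Acaca, acetyl-CoA carboxylase, was at 280.5 and 269.9 CPM in the parental libraries, 248.9 in DMSO 1x, 250.4 in DMSO 16x, 262.8, 247.7 and 263.2 in dasatinib 1x and 244.2, 247.7 and 249.2 in dasatinib 16x. Here the DMSO lines lay with the dasatinib lines, below the parental pair.

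Between the 2 dasatinib steps none of the genes passed in the fit of 3 classes. At 16x against 1x, 0 of 29 genes were called by edgeR, where 2.13% of all tested genes were, and DESeq2 also called 0, against 5.95% of all genes it tested. In the fit of 5 groups, 2 of 29 (6.90%) passed, Acly higher and Fads1 lower, where 13.6% of all tested genes did. Without adjustment, 1 gene had a p under 0.05, where 15.8% of all tested genes had one: Fads1, the delta-5 desaturase of polyunsaturated fatty acids. Its level was 196.7 and 189.1 CPM in the parental libraries, 189.0 in DMSO 1x, 164.2 in DMSO 16x, 210.5, 203.8 and 209.5 in dasatinib 1x and 198.7, 170.8 and 181.6 in dasatinib 16x. The 16x libraries lay below the 1x libraries, a log2 change of -0.18 ± 0.07 (edgeR adjusted p = 0.257). The medians were -0.03 over the 17 sterol enzymes, -0.03 over the 4 regulators and 0.00 over the 8 fatty acid genes.

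In 5 of the 29 genes the libraries of the 2 steps did not overlap, 3 lower at 16x (Fads1, Hsd17b7 and Sc5d) and 2 higher (Ebp and Acly), while 15.5% of all tested genes were lower and 15.1% higher in this way. Hsd17b7, a sterol ketoreductase, was at 45.6 and 46.3 CPM in the parental libraries, 47.5 in DMSO 1x, 52.8 in DMSO 16x, 47.0, 46.2 and 45.9 in dasatinib 1x and 45.4, 43.9 and 42.6 in dasatinib 16x. Ebp was at 42.9 and 41.4 CPM in the parental libraries, 44.9 in DMSO 1x, 49.4 in DMSO 16x, 42.7, 44.2 and 42.2 in dasatinib 1x and 51.3, 45.2 and 44.3 in dasatinib 16x. Hsd17b7 lay below all other libraries in dasatinib 16x, and the highest libraries for Ebp were dasatinib 16x replicate A and DMSO 16x. None of the 5 differences passed in the fit of 3 classes (edgeR adjusted p = 0.59 for Hsd17b7, 0.766 for Sc5d, 0.471 for Ebp and 0.805 for Acly).

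Most of these genes were higher in the DMSO lines than in the parental line. Against it, 4 of 29 genes passed in DMSO 1x (13.8%), where 6.17% of all tested genes did: Acly, Scd1 and Fdps rose and Fads2 fell. In DMSO 16x, 21 of 29 passed (72.4%), where 30.9% of all tested genes did, and 17 of them rose. The median log2 change of the 29 genes was 0.13 in DMSO 1x and 0.23 in DMSO 16x, beside 0.00 and -0.01 over all tested genes. DMSO 16x was the highest library for 19 of the 29 genes (65.5%), against 24.0% of all tested genes. Each DMSO step is 1 library, so its spread is taken from the other groups. Without parental replicate B, 11 genes passed in DMSO 16x, and leaving out either parental library left 2 in DMSO 1x, while leaving out any 1 dasatinib 16x library gave 9 to 10 there.

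Of the 17 sterol enzymes, 12 rose in DMSO 16x, 1 fell (Mvk) and 4 did not pass (Cyp51, Dhcr7, Ebp and Tm7sf2). Of all 12282 tested genes, 1801 rose and 1995 fell. Pmvk, phosphomevalonate kinase, had the greatest rise of the sterol enzymes. It was at 25.4 and 27.1 CPM in the parental libraries, 31.0 in DMSO 1x, 41.3 in DMSO 16x, 26.9, 28.4 and 25.7 in dasatinib 1x and 28.1, 26.5 and 24.6 in dasatinib 16x. The dasatinib lines stayed at the parental level while DMSO 16x stood above all, with a log2 change of 0.65 ± 0.09 against parental (edgeR adjusted p = 0.000168).

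Fdps was at 164.3 and 164.0 CPM in the parental libraries, 193.2 in DMSO 1x, 226.1 in DMSO 16x, 151.7, 164.7 and 149.2 in dasatinib 1x and 152.0, 156.7 and 150.2 in dasatinib 16x. The log2 change was 0.24 ± 0.06 in DMSO 1x (edgeR adjusted p = 0.0324, up to 0.17 when either parental library was left out) and 0.46 ± 0.06 in DMSO 16x (adjusted p = 5.86e-05). Mvd, the diphosphomevalonate decarboxylase, rose by 0.44 ± 0.09, Lss by 0.34 ± 0.08, Nsdhl by 0.33 ± 0.09 and Sc4mol, a methylsterol oxidase, by 0.31 ± 0.05 in DMSO 16x. The other 6 that rose were Acat2, Sc5d, Fdft1, Hsd17b7, Idi1 and Sqle, by 0.31 down to 0.17.

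Among the regulators, Srebf1 rose in DMSO 16x by 0.41 ± 0.07 (edgeR adjusted p = 0.00061) and Srebf2 by 0.24 ± 0.05 (adjusted p = 0.0038). Insig1 had a log2 change of 0.03 ± 0.08 and did not pass. Stard4 fell by 0.21 ± 0.05 (edgeR adjusted p = 0.0108).

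The median change in DMSO 16x was lower on chromosomes 5 and 18 than on the other chromosomes. Genes of chromosomes 5 and 18 had median log2 changes of -0.47 (735 genes) and -0.51 (292 genes) in DMSO 16x against parental, while the other chromosomes lay between -0.01 and 0.08. They were -0.17 and -0.17 in DMSO 1x. Mvk (-0.36), Cyp51 (0.04) and Insig1 (0.03) lie on chromosome 5 and Stard4 (-0.21) on chromosome 18, so 2 of the 4 that fell are on these chromosomes, and all 4 of these genes lay above the median of their chromosome, by 0.11 for Mvk, 0.51 for Cyp51, 0.50 for Insig1 and 0.30 for Stard4. The part of chromosome content in these values was not tested. Without parental replicate B, Mvk and Stard4 did not pass (edgeR adjusted p = 0.0642 and 0.0674).

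**Figure D3:**
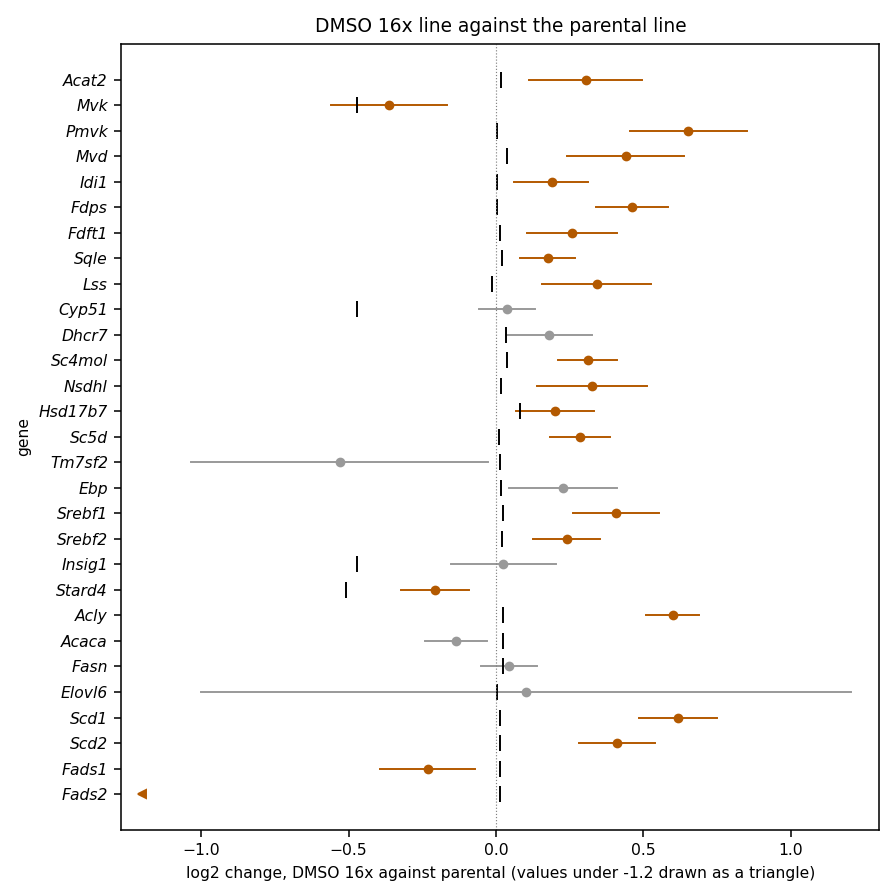
Log2 change of the 29 tested genes in DMSO 16x against parental (points, with 95% intervals from edgeR; orange where the test was passed, grey where not), with the median of all genes of the same chromosome as a black tick. 17 genes rose, and Fads2, off the scale at -3.93, is drawn as a triangle.

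In the fatty acid arm, Acly, Scd1 and Scd2 rose in DMSO 16x and Fads2 and Fads1 fell. Acly, ATP citrate lyase, makes the cytosolic acetyl-CoA used by both pathways. It was at 479.9 and 466.6 CPM in the parental libraries, 591.6 in DMSO 1x, 716.6 in DMSO 16x, 451.4, 461.9 and 466.0 in dasatinib 1x and 500.2, 487.0 and 492.6 in dasatinib 16x. The log2 change was 0.32 ± 0.04 in DMSO 1x (edgeR adjusted p = 0.00136) and 0.60 ± 0.04 in DMSO 16x (adjusted p = 9.07e-07).

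Scd1 and Scd2, the stearoyl-CoA desaturases that make monounsaturated fatty acids, were also highest in the 2 DMSO libraries. Scd1 was at 662.8 and 660.2 CPM in the parental libraries, 804.8 in DMSO 1x, 1015 in DMSO 16x, 675.6, 685.3 and 689.0 in dasatinib 1x and 710.4, 772.1 and 677.5 in dasatinib 16x. Scd2 was at 1690 and 1706 CPM in the parental libraries, 1967 in DMSO 1x, 2259 in DMSO 16x, 1670, 1630 and 1694 in dasatinib 1x and 1683, 1698 and 1517 in dasatinib 16x. The other libraries were ordered differently: all 6 dasatinib libraries lay above both parental ones for Scd1, and the lowest library for Scd2 was dasatinib 16x replicate C. In DMSO 16x the log2 changes were 0.62 ± 0.06 for Scd1 (edgeR adjusted p = 1.28e-05) and 0.41 ± 0.06 for Scd2 (adjusted p = 0.000225). Scd1 also rose in DMSO 1x (0.28 ± 0.06, edgeR adjusted p = 0.0199), but not when either parental library was left out (edgeR adjusted p up to 0.138). These 2 genes are close paralogs, and reads shared between them cannot be told apart. Fads1 fell by 0.23 ± 0.07 in DMSO 16x (edgeR adjusted p = 0.0342), a call lost when any of 6 libraries was left out (adjusted p up to 0.138): either parental library, any dasatinib 1x library or dasatinib 16x replicate C.

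Fads2, the delta-6 desaturase that starts the synthesis of long polyunsaturated fatty acids, changed most. It was at 116.7 and 110.8 CPM in the parental libraries, 74.5 in DMSO 1x, 7.45 in DMSO 16x, 121.2, 123.3 and 126.4 in dasatinib 1x and 127.3, 121.3 and 117.2 in dasatinib 16x. The 6 dasatinib libraries lay above the parental pair, and the DMSO libraries fell far below both. The log2 change against parental was -0.61 ± 0.06 in DMSO 1x (edgeR adjusted p = 0.00023) and -3.93 ± 0.08 in DMSO 16x (adjusted p = 9.36e-11), the smallest p of all 12282 genes in that comparison. Of the genes beside it on chromosome 19, Fads1, the nearest on one side, fell by 0.23 in DMSO 16x, as given above. Fads3, the nearest on the other, also fell, from 0.443 and 0.407 CPM in the parental libraries to 0.0268 in DMSO 16x, which is 1 count. Fen1 rose by 0.16, Incenp rose by 0.12, and Fth1 had a log2 change of -0.03 that did not pass. Against the drug-free class the change of Fads2 did not pass at either step, with 0.68 ± 0.62 at 1x and 0.66 ± 0.62 at 16x (edgeR adjusted p = 0.566 and 0.517). That class holds the 2 DMSO libraries.

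**Figure D4:**
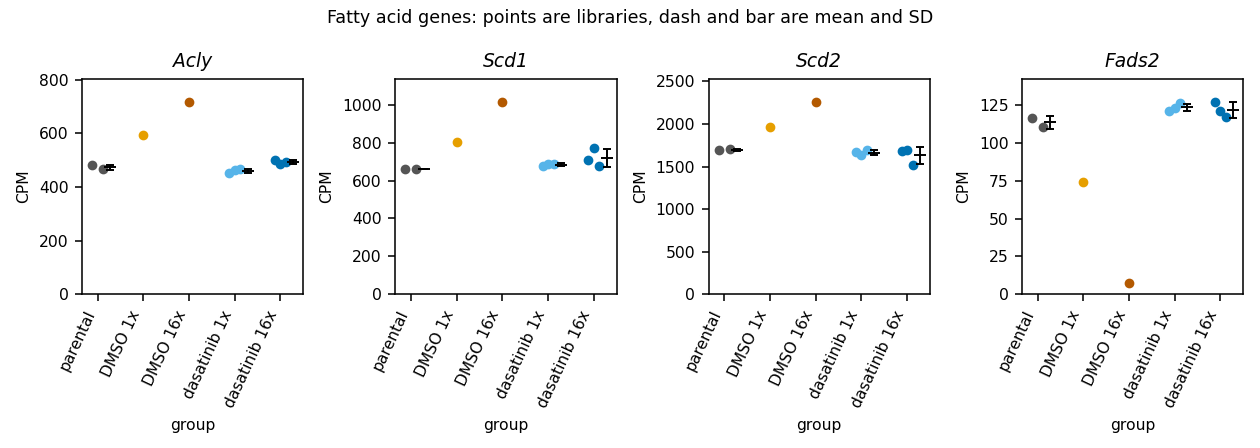
CPM (vertical axes, from 0) of Acly, Scd1, Scd2 and Fads2 in the 5 groups, with 1 point per library and the mean and SD of groups with over 1 library beside them. The DMSO 16x point is the highest for Acly, Scd1 and Scd2 and the lowest for Fads2, at 7.45 CPM.

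Set against the DMSO library of the same step, dasatinib lines showed lower sterol and fatty acid genes. At 1x, 15 of 29 genes passed (51.7%), where 13.5% of all tested genes did: 14 were lower and Fads2 was higher. At 16x, 22 passed (75.9%), where 35.7% of all tested genes did: 20 were lower, and Fads2 and Mvk were higher. These comparisons use the same DMSO libraries as those with the parental line, so they are no second observation of the rise in DMSO. Without dasatinib 1x replicate C, 9 genes passed at 1x.

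At 16x against DMSO 16x, 14 of the 17 sterol enzymes were lower, where 2062 of all 12282 tested genes were. The median log2 change over the 17 was -0.37. Pmvk was lower by 0.65 ± 0.08, Fdps by 0.56 ± 0.05, Acat2 by 0.56 ± 0.08 and Idi1 by 0.46 ± 0.05 on the log2 scale. Mvk was higher by 0.37 ± 0.09 (edgeR adjusted p = 0.00463), beside a median of 0.54 over the genes of chromosome 5. Of the regulators, Srebf1 (-0.44 ± 0.06) and Srebf2 (-0.28 ± 0.05) were lower. Of the fatty acid genes, Acly (-0.54 ± 0.04), Scd1 (-0.50 ± 0.06), Scd2 (-0.47 ± 0.06) and Fasn (-0.16 ± 0.04) were lower and Fads2 was higher, by 4.03 ± 0.08.

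At 1x against DMSO 1x, 10 of the 17 sterol enzymes were lower, where 818 of all 12282 tested genes were. The median log2 change over the 17 was -0.20. Acat2 was lower by 0.40 ± 0.08, Acly by 0.36 ± 0.04, Mvd by 0.35 ± 0.09 and Fdps by 0.32 ± 0.05 on the log2 scale. Srebf1 was lower by 0.21 ± 0.06 (edgeR adjusted p = 0.046), a call lost without either parental library or any dasatinib 1x library (adjusted p up to 0.118). Fads2 was higher by 0.73 ± 0.06 (edgeR adjusted p = 1.07e-05).

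**Figure D5:**
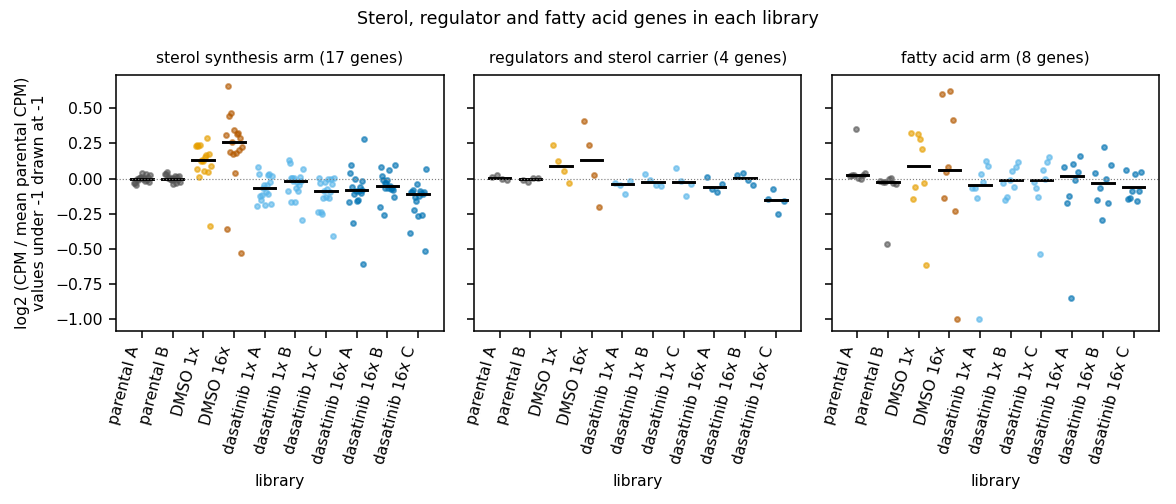
Log2 ratio of CPM to the parental mean (vertical axis) for the 17 sterol, 4 regulator and 8 fatty acid genes tested (points) in each library, with the median as a black bar. The sterol median is 0.13 in DMSO 1x and 0.26 in DMSO 16x, and between -0.11 and -0.02 in the 6 dasatinib libraries.

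Relative to the parental mean, the sterol medians were -0.06, -0.02 and -0.09 in dasatinib 1x and -0.09, -0.05 and -0.11 in dasatinib 16x, against 0.13 in DMSO 1x and 0.26 in DMSO 16x. The fatty acid medians were 0.09 and 0.06 in the DMSO libraries: Fads1, Fads2 and Acaca lay below the parental mean in DMSO 16x and Acly, Scd1 and Scd2 well above it. The summed level of the fatty acid arm was highest in DMSO 16x, at 5266 CPM. It was 4269 and 4214 CPM in the parental libraries, 4668 in DMSO 1x and 3988 to 4284 in the dasatinib libraries. Most of the sum in DMSO 16x was Scd2 (2259 CPM), Scd1 (1015) and Acly (716.6). Without Scd2 the sum was 3007 CPM in DMSO 16x, against 2471 to 2586 in the dasatinib libraries.

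A test of whether the change from 1x to 16x differed between dasatinib and DMSO called 1 of the 29 genes (3.45%), where 6.74% of all tested genes were called. That gene was Fads2, whose log2 change from 1x to 16x was higher under dasatinib by 3.30 ± 0.10 (edgeR adjusted p = 4.47e-09). Pmvk (-0.45 ± 0.12, edgeR adjusted p = 0.0513) and Acly (-0.18 ± 0.06, adjusted p = 0.0904) had values that did not pass. Of the 29 genes, 22 had a value below 0, with a median of -0.13, beside 47.5% of all tested genes.

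Of 74 tested further genes of these pathways, listed by function, 18 (24.3%) were called at 16x against drug-free, 13 higher and 5 lower, where 16.1% of all tested genes were called. At 1x, 2 (2.70%) were called, where 1.96% of all tested genes were. Of 6 tested genes listed as other sterol and isoprenoid enzymes, Acat1 and Nus1 rose. Acat1 (0.27 ± 0.04, edgeR adjusted p = 0.00256) is a mitochondrial thiolase, while the enzyme that feeds the mevalonate pathway is the cytosolic Acat2. Nus1 (0.14 ± 0.04, edgeR adjusted p = 0.0469) is a dolichol synthesis subunit. Acat1 was at 171.9 and 168.1 CPM in the parental libraries, 171.3 and 158.2 in DMSO 1x and 16x, 186.6 to 198.1 in dasatinib 1x and 196.3 to 207.7 in dasatinib 16x, so all 6 dasatinib libraries lay above all 4 drug-free ones. Of 12 tested genes that process or turn over SREBP, Scap, the SREBP escort protein, fell (-0.21 ± 0.05, edgeR adjusted p = 0.024).

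At 16x against drug-free, 16.1% of all tested genes were called in either direction, the share to set beside the count of each list below. Of 12 tested genes of sterol transport and storage, 3 rose at 16x. They were Lipa, lysosomal acid lipase (0.25 ± 0.06), Soat1, which esterifies cholesterol (0.27 ± 0.07), and Osbpl9, a sterol carrier (0.12 ± 0.04). Of 8 tested genes of the oxysterol receptor LXR pathway, Abcg1, a sterol exporter, rose (0.24 ± 0.05). Of 22 tested further fatty acid genes, 3 rose and 2 fell at 16x. Among them Gpam, which starts glycerolipid synthesis, fell at both steps (-0.39 ± 0.08 at 1x and -0.48 ± 0.08 at 16x), and Elovl1, an elongase, rose at 16x (0.21 ± 0.04). Of 14 tested fatty acid oxidation genes, 4 rose and 2 fell at 16x, among them Acadvl (0.44 ± 0.07), Cpt2 (0.29 ± 0.06) and Acads (0.46 ± 0.11), which rose. Acads lies on chromosome 5, whose genes had a median log2 change of 0.22 in this comparison, and the part of chromosome content was not tested. The 2 that fell were Slc25a20, the mitochondrial carnitine carrier (-0.67 ± 0.20, edgeR adjusted p = 0.0452), and Decr1, a reductase of unsaturated fatty acid oxidation, which had 0 counts in all 6 dasatinib libraries.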

How the data were processed

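Counts of reads per gene in 10 libraries were used as the authors deposited them. Per the submitters' processing notes, the build was mm9 and the tools named, without their roles, were HTSeq 0.6.1, TopHat2 2.0.12, BWA 0.7.10, Trimmomatic 0.33, SAMtools, CASAVA 1.7.0 and DESeq. Libraries were made with an Illumina TruSeq kit, per the labels' protocols. The strand setting of the counting is not given in the sources used here.

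In R 4.3.3, edgeR 4.0.16 was run on the counts with TMM scaling, filterByExpr at a minimum count of 10 and the robust quasi-likelihood test, adjusted by Benjamini and Hochberg over the 12282 genes tested, with a threshold of 0.05. All p-values named adjusted are from edgeR unless DESeq2 is named. The 3 comparisons of dasatinib with drug-free or between dasatinib steps used 3 classes (7 residual degrees of freedom, biological coefficient of variation 15.3%). The others used 5 groups (5 degrees of freedom, 7.27%), where a lone DMSO library is assumed to vary like the other groups. The labels call the dasatinib libraries biological replicates and the parental ones replicates. They do not say whether replicates came from separate cultures. Each p-value thus speaks of the spread among these libraries alone, which may be technical. Other settings were RLE scaling, no filter, DESeq2 1.42.0, a replicate block, other references and each library left out. The model fit was also run on simulated data. For the 3 classes, the simulated drug-free libraries did not drift apart, so that run does not bear on the spread of the drug-free class.

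The members and lists were chosen with earlier results of these data known. Values by library are given for members called in a main comparison or in the test of step changes, for the 3 of each arm with the smallest p per main comparison, and for Srebf1, Srebf2 and Insig1. Of each further list, up to 3 called genes per main comparison are named. Members named for the DMSO comparisons, neighbours of Fads2, the 2 oxidation genes that fell at 16x and genes of the closing section were chosen after their values were seen. Chromosomes and promoters came from RefSeq on GRCm38.p6 and exon lengths from GENCODE vM21, by symbol, with Sc4mol matched as a synonym of Msmo1. One gene of the further lists is not reported here.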

Additional observations from a re-analysis of the deposited data

Results flagged for a closer look

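In the 4 drug-free libraries, Idi1 stood at 91.1 CPM in DMSO 16x, apart from the other 3 at 79.4 to 80.4. The gap to the nearest library was 0.911 of the range of the 4, and Idi1 was the 1 gene of the 29 tested flagged by this share. The share does not measure the size of a difference. Fads2 was not flagged, at 7.45 CPM in DMSO 16x against 74.5 to 116.7 in the other 3. The cut-off flags about 1 in 20 groups by chance where the libraries are repeats of 1 group. These 4 are 2 parental libraries and 2 DMSO lines, so that rate does not apply here.

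The change from 1x to 16x differed between dasatinib and DMSO, by the test of the difference in edgeR, for Fads2 and for 5 of 74 tested genes of the further lists (6.76%), where 6.74% of all tested genes were called, with 1 DMSO library per step. The difference was 3.30 on the log2 scale for Fads2. It was 0.94 for Mid1ip1, which activates acetyl-CoA carboxylase and 0.40 for Lrp8, a lipoprotein receptor. Among the oxidation genes it was 0.56 for Acads, 0.24 for Hadha and 0.30 for Hadhb. Acads lies on chromosome 5, as do Hadha and Hadhb, where the median difference of all genes was 0.30, and the part of chromosome content was not tested.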

How the results depend on the processing

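The number of the 29 genes called depended on the reference, the form of the model and the tool, and the number over all genes moved with it. For dasatinib 1x against drug-free, 0 were called (1.96% of all tested genes), but 6 by DESeq2 (6.38%), 22 with 5 groups and the mean of the drug-free groups (28.1%), 2 against parental alone (5.76%) and 22 against DMSO alone (33.8%). For 16x against drug-free the 3 calls (16.1%) became 8 (19.4%), 22 (37.0%), 5 (26.5%) and 21 (36.8%) in the same order. With 5 groups, 16x against 1x gave 2 (13.6%). Without the filter, DMSO 1x against parental gave 7 in place of 4, and the test of step changes gave 4 in place of 1, against 2 with RLE scaling and 4 with DESeq2. Leaving out each library gave 0 to 1 at 1x and 1 to 6 at 16x against drug-free, 0 at 16x against 1x, 9 to 17 at 1x against DMSO 1x, 22 to 24 at 16x against DMSO 16x, 2 to 10 in DMSO 1x and 11 to 24 in DMSO 16x against parental, and 1 to 5 for the step changes. The 1 at dasatinib 1x came without DMSO 16x, and the 6 at dasatinib 16x when either parental library was left out. The cause was not tested.

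With the replicate letter as a block (replicate block), 0, 2 and 0 genes were called at 1x and 16x against drug-free and at 16x against 1x, and Acat2 (edgeR adjusted p = 0.0578) and Cyp51 (0.0956) were lost at 16x. The labels do not say whether the letters pair libraries across steps, and pairing was not tested. Correlations between same-letter libraries of the 2 dasatinib steps were 0.094, 0.047 and 0.059, and those between different letters -0.071 to 0.012. Those with parental libraries were -0.03 to 0.03. They cannot show pairing, since the 2 parental libraries mirror each other once their mean is subtracted. Srebf1 at 1x against drug-free, which did not pass, turned to 0.041 on the log2 scale with the block and 0.026 against parental alone. Elovl6 and Tm7sf2, at 14 and 126 counts in their lowest libraries, were the least precise.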

Other observations

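Of 74 tested further genes around the 2 pathways, 26 (35.1%) were called in DMSO 16x against parental, 15 higher and 11 lower, where 30.9% of all tested genes were called. In DMSO 1x, 7 (9.46%) were called, where 6.17% of all tested genes were. Lpcat3, a phospholipid remodelling enzyme and LXR target, rose against parental by 0.30 ± 0.06 (SE) in DMSO 1x and 0.51 ± 0.06 in DMSO 16x on the log2 scale, and Rxra, the partner of LXR, rose by 1.40 ± 0.22 in DMSO 16x (edgeR adjusted p = 0.00231). Npc2, a lysosomal sterol carrier, rose by 0.51 ± 0.06 and Acss2, acetyl-CoA synthetase, by 1.74 ± 0.26 in DMSO 16x. Lrp8 fell by 0.76 ± 0.08 and Mid1ip1 by 1.18 ± 0.06. Mid1ip1 was at 131.0 and 124.2 CPM in the parental libraries, 105.6 in DMSO 1x, 56.2 in DMSO 16x and 135.3 to 141.9 in the dasatinib libraries, so the DMSO libraries lay below all others.

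Decr1, a reductase of unsaturated fatty acid oxidation, had 0 counts in all 6 dasatinib libraries. It was at 4.74 and 5.21 CPM in the parental libraries, 2.93 in DMSO 1x (107 counts) and 0.268 in DMSO 16x (10 counts). Against the parental mean of 4.98 CPM it was at least 184-fold lower in dasatinib 1x and at least 213-fold lower in dasatinib 16x, with a floor of 3 counts over each group, which covers counting error only. In DMSO 16x, Decr1 fell by 4.20 ± 0.47 against parental (edgeR adjusted p = 0.000279).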
